A study of Mus musculus with 6 samples.

Results

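The core cardiac transcription factors described here were 10 genes, Nkx2-5, Gata4, Gata6, Mef2c, Hand1, Hand2, Tbx2, Tbx3, Tbx5 and Tbx20. They were taken by gene symbol from the 45792 genes of a table of read counts, and all 10 were among the 17125 genes with enough counts to be tested. The hearts came from embryos at embryonic day 13.5 (e13.5), 3 labelled wild type and 3 labelled Tie2Cre INO80 flox/flox. Ino80 is the ATPase of a chromatin remodelling complex, and in the floxed allele exon 6 lies between loxP sites. Tie2Cre is a recombinase transgene active in endothelial cells, the endocardium included, and in what descends from them, which covers the cushion mesenchyme and many blood cells but not the cardiomyocytes. The comparison asks how the transcripts of the whole heart differ when Ino80 is to be lost from those cells alone.

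The labels give 1 strain, C57BL/6, for all 6 hearts, whereas the methods of the study describe mixed backgrounds. In its measurements of the compact wall the study took every genotype other than Tie2Cre;Ino80 fl/fl as control, and if that held for these hearts some controls may carry the transgene or 1 floxed allele. The labels number the hearts of a group from 1 to 3 without giving litters, and p-values measure only the spread between these hearts. Ino80 itself, counted over the whole gene, stood at 30.2, 31.6 and 32.7 counts per M counts (CPM) in the labelled controls and 36.5, 33.7 and 31.8 CPM in the labelled mutants. The groups overlapped, so the table does not check the labels, and the groups are called labelled controls and labelled mutants here. Counts totalled 28948836 to 89675692 per heart, a 3.10-fold range, and the deepest library was mutant replicate 1. Xist, the transcript of the inactive X chromosome, stood at 534 to 693 CPM in control replicate 3 and mutant replicates 1 and 2 and below 1 CPM in the others, where the Y-linked Ddx3y stood at 79.3 to 98.8 CPM, so the sexes were unevenly divided. The counts come from whole hearts, in which fewer cells of a type and less RNA per cell cannot be told apart.

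The 10 factors form the network that sets up and maintains the heart muscle lineage. Nkx2-5 is a homeodomain protein of the NK2 class, Gata4 and Gata6 are zinc finger proteins that bind GATA motifs, and Mef2c is a MADS box activator of muscle genes. Hand1 and Hand2 are basic helix-loop-helix proteins that bind E-boxes, with Hand1 used mainly in the left ventricle and the outer curvature and Hand2 in the right ventricle, the outflow tract, the epicardium and the neural crest. The T-box proteins divide the tube into regions: Tbx5 activates chamber genes in the atria and the left ventricle, Tbx20 is a general chamber factor, and Tbx2 and Tbx3 hold back the chamber programme in the atrioventricular canal and, for Tbx3, in the conduction system.

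RefSeq start-site windows (GRCm38.p6, 250 bases before to 50 after a start) were matched by symbol for 4 of the 10 factors, Hand2, Mef2c, Nkx2-5 and Tbx20. Those of the 3 factors with a single window are shown 5′ to 3′ along the gene's strand, because they show which of the network's own motifs stand there. The Nkx2-5 window lies inside the annotated gene (26838664 to 26845009, minus strand) and not at its 5′ end. Capitals mark AGATAA or TGATAA, read on both strands, the motifs of the GATA factors. The windows are chr8:57320733-57321032 on the plus strand for Hand2, chr17:26841516-26841815 on the minus strand for Nkx2-5 and chr9:24774254-24774553 on the minus strand for Tbx20.
Hand2: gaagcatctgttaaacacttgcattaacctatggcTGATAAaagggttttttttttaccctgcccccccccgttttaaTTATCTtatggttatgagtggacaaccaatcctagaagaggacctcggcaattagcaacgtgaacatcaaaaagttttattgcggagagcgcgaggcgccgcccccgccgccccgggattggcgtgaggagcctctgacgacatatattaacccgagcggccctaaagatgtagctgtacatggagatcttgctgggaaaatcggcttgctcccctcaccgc
Nkx2-5: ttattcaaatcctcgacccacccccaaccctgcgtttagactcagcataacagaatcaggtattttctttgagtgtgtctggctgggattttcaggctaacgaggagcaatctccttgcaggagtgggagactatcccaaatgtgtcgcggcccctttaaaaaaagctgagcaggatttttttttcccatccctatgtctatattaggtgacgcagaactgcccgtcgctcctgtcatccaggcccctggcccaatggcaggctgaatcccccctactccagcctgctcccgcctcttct
Tbx20: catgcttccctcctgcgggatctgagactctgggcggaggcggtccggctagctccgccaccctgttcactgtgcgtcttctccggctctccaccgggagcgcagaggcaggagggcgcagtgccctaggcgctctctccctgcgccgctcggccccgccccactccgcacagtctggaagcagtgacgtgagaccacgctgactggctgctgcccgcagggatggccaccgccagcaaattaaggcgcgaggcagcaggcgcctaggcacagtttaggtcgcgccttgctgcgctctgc
Of these, the window of Hand2 alone held GATA motifs, TGATAA at position -215 from the start and AGATAA, written TTATCT on the strand shown, at position -172. Over all 32851 windows of the table, 9.05% held TGATAA and 11.2% held AGATAA on either strand. The T-box motif GGTGTGA (3.98% of all windows) and the NK2 motif AAGTGG (16.9%) were in none of the windows of the 4 factors. The E-box CANNTG, which 72.3% of all windows held, occurred at 2 places in the Hand2 window and at 1 place in that of Nkx2-5. It also occurred at 2 places in 1 window of Mef2c and at 1 place in another. The Tbx20 window held none of the motifs searched and was the richest in G and C of the 3, at 68.3% against 50.3% for Hand2 and 51.7% for Nkx2-5, where the median of all windows was 52.7%. TATAAA, in 13.6% of all windows, was found in windows of Mef2c only. These matches are letters in a sequence, not sites of binding.

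Every factor was well covered, with 283 to 52678 raw counts per heart. To compare levels between genes, CPM were divided by the kb of merged exons, and on that scale the order of the means of the labelled controls was Nkx2-5 (94.0 CPM per kb), Gata4 (62.3), Tbx20 (46.7), Gata6 (30.4), Hand2 (29.2), Tbx5 (8.53), Mef2c (7.64), Hand1 (5.81), Tbx2 (3.91) and Tbx3 (1.40). Neighbours in this order with overlapping ranges over the 3 hearts were Gata6 and Hand2, Mef2c and Hand1, and Hand1 and Tbx2. In the labelled mutants Hand2 (34.5 CPM per kb) stood above Gata6 (24.7), and Hand1 (11.3) above Mef2c (7.20), while the ranges of Tbx20 (43.6) and Hand2 overlapped, as did those of Tbx5 (12.4) and Hand1. The others were at 104 for Nkx2-5, 66.2 for Gata4, 4.14 for Tbx2 and 1.91 for Tbx3. With the longest transcript as the length, Mef2c (19.1) stood above Tbx5 (10.1) in the labelled controls, and the other 8 factors kept their rank.

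**Figure D1:**
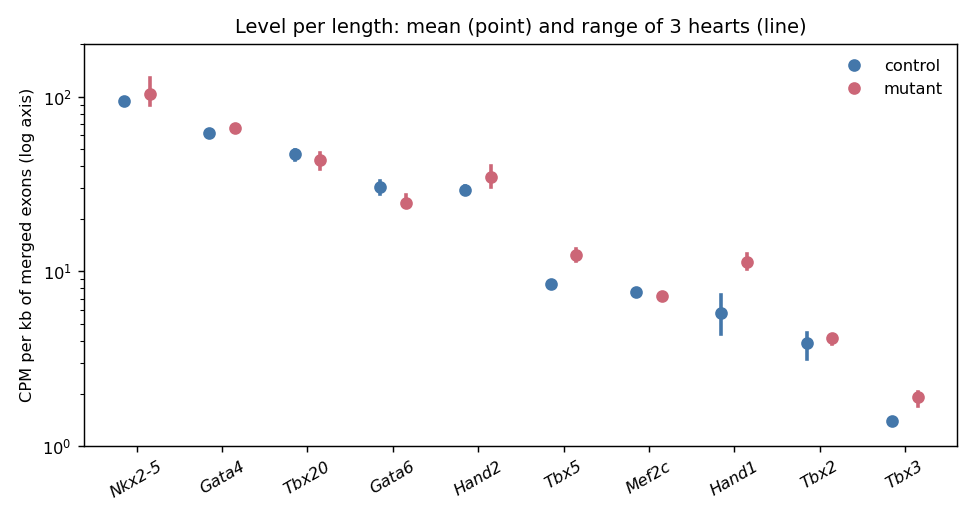
Level of each factor per length, in CPM per kb of merged exons on a log axis, as the mean (point) and the range (line) of the 3 control (blue) and 3 mutant (red) hearts. Nkx2-5 was the highest at 94.0 and 104 CPM per kb and Tbx3 the lowest at 1.40 and 1.91. Hand1, Tbx5 and Tbx3 stood above their control ranges and Gata6 stood below its own.

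Within a gene, CPM scaled by TMM (a scaling that sets most genes level between libraries) were compared between the groups with edgeR's quasi-likelihood test and Benjamini-Hochberg adjustment over all 17125 genes. Of the 10 factors, 7 had a higher and 3 a lower fitted level in the labelled mutants, with a median log2 fold change (mutant over control) of 0.12 against -0.0017 over all genes tested. Tbx5, Hand1 and Tbx3 were higher and Gata6 was lower in every labelled mutant than in any labelled control, so 4 of 10 did not overlap where 27.1% of all genes tested did not (14.3% higher, 12.8% lower). With 1 heart left out the factors without overlap numbered 4, 4 and 7 for control replicates 1 to 3, where 41.9%, 35.0% and 39.5% of all genes did not overlap, and 5, 6 and 4 for mutant replicates 1 to 3 (34.9%, 34.8% and 38.6% of all genes). In CPM by total counts alone, Gata4 and Hand2 were also higher without overlap, which made 6 factors where 27.9% of all genes did not overlap (18.9% higher, 9.02% lower). The same 4 factors had an unadjusted p under 0.05 with edgeR, a level that 19.5% of all genes reached, 9.48% higher and 9.98% lower. With edgeR, 0 of the 10 factors passed an adjusted p of 0.05, as did 0.0% of all genes, the smallest adjusted p of any gene being 0.0533. At an adjusted p under 0.1, edgeR called 2 factors, Tbx5 and Hand1, and 2.39% of all genes. DESeq2, the tool of the study, run again here, called Tbx5, Hand1 and Tbx3 at 0.05, all higher, and 6.23% of the 16221 genes to which it gave an adjusted p (2.73% higher, 3.50% lower). The study reported fewer changed genes than this run called, and its own results for these factors were not used here.

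**Figure D2:**
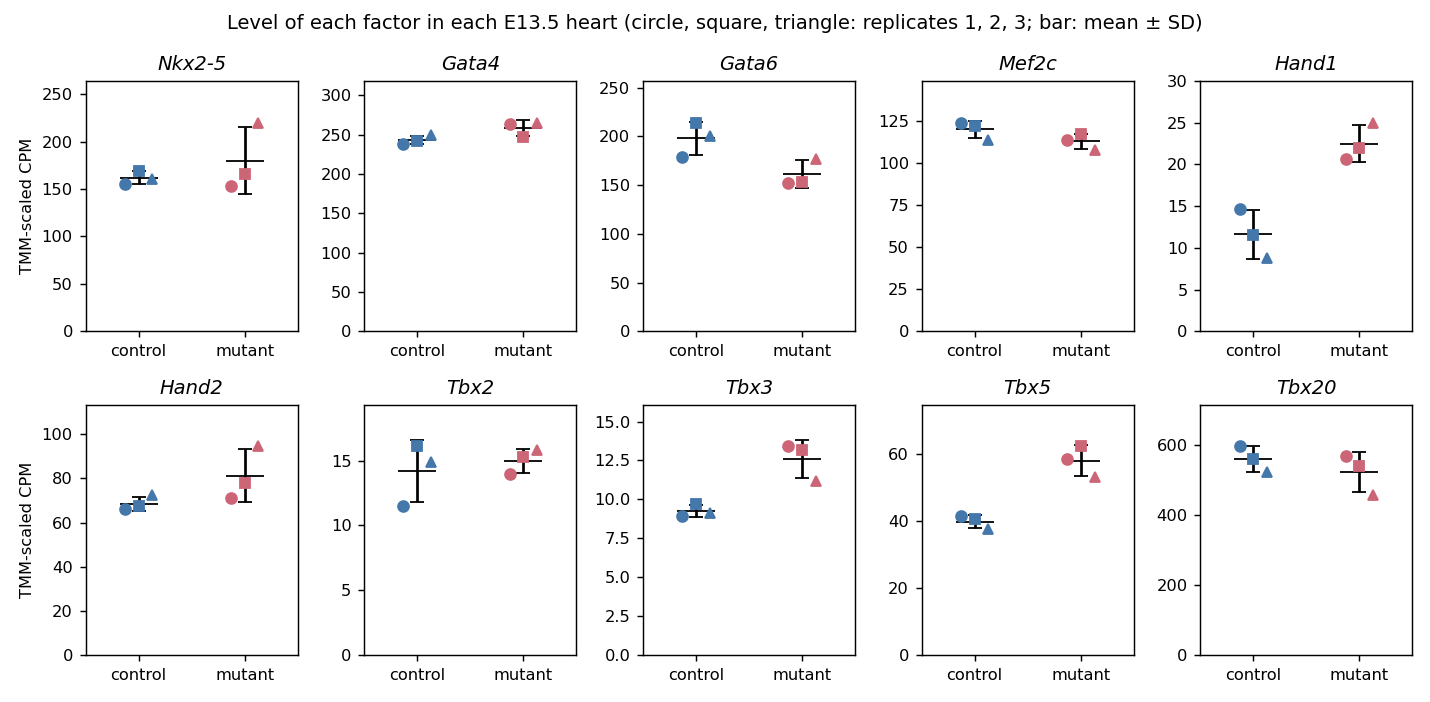
TMM-scaled CPM of each factor in each heart, with circles, squares and triangles for replicates 1, 2 and 3 and bars for the mean and SD of 3 hearts; each axis starts at 0. Hand1, Tbx3 and Tbx5 lay higher and Gata6 lower in all 3 mutant hearts, and the other 6 factors overlapped.

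Tbx5 (ENSMUSG00000018263.9, chromosome 5, 119832668 to 119885219, plus strand, GRCm38), the activator of atrial and left ventricular genes, was at 41.5, 40.6 and 37.6 CPM in labelled controls 1 to 3 and at 58.7, 62.4 and 53.2 CPM in the labelled mutants. The lowest labelled mutant lay well above the highest labelled control, and the gap between the groups was wider than the spread within either. The means were 39.9 ± 2.06 and 58.1 ± 4.65 CPM (SD, n = 3 each), a log2 fold change of 0.54 with a standard error (SE) of 0.09, or 1.46-fold with a 95% interval from 1.27 to 1.67. Its adjusted p was 0.0645 with edgeR and 6.95e-05 with DESeq2. Among all genes tested it ranked 49 by p. With every gene of at least 1 count kept, edgeR called Tbx5 and Hand1 and 2.13% of all genes.

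Hand1 (ENSMUSG00000037335.11, chromosome 11, 57828705 to 57832818, minus strand), the Hand factor of the left ventricle and outer curvature, had the largest fold change of the 10. It stood at 14.6, 11.5 and 8.74 CPM in the labelled controls and at 20.6, 22 and 25.0 CPM in the labelled mutants. All labelled mutants were higher, and control replicate 1 came nearest to them. The means of 11.6 ± 2.91 and 22.5 ± 2.24 CPM (SD, n = 3 each) gave a log2 fold change of 0.95 (SE 0.18), or 1.93-fold with a 95% interval from 1.46 to 2.56. The adjusted p was 0.0816 with edgeR and 3.76e-05 with DESeq2. Without control replicate 1, the edgeR log2 fold change of Hand1 was 1.15 (adjusted p = 0.0122) and that of Tbx5 0.57 (adjusted p = 0.026), so edgeR called 2 factors in that fit (4.34% of all genes), and with any other heart left out it called 0.

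Tbx3 (ENSMUSG00000018604.16, chromosome 5, 119670669 to 119684724, plus strand), a repressor of chamber genes in the atrioventricular canal and conduction system, lies on the same chromosome as Tbx5. It was at 8.91, 9.70 and 9.14 CPM in the labelled controls and at 13.4, 13.2 and 11.2 CPM in the labelled mutants. The labelled controls lay close together and mutant replicate 3 was the nearest to them. The means were 9.25 ± 0.41 and 12.6 ± 1.21 CPM (SD, n = 3 each), a log2 fold change of 0.45 (SE 0.11) or 1.37-fold, with an edgeR adjusted p of 0.108 and a DESeq2 adjusted p of 0.029. The DESeq2 call was lost in 5 of the 6 fits that left out 1 heart (adjusted p up to 0.232) and kept without mutant replicate 3 (adjusted p = 0.00709). Its 5′ end overlaps the antisense gene Tbx3os1 over 115 bases of shared exon, which was at 0.263, 0.17 and 0.0617 CPM in labelled controls and 0.379, 0.564 and 0.308 CPM in labelled mutants. Tbx3os1 too did not overlap between the groups (log2 fold change 1.30, edgeR adjusted p = 0.22). That rests on 10, 5 and 2 raw counts in labelled controls and 35, 24 and 9 in labelled mutants. Whether reads of Tbx3 were counted for Tbx3os1 was not tested.

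Gata6 (ENSMUSG00000005836.8, chromosome 18, 11052064 to 11085635, plus strand), the GATA factor of the muscle, outflow tract and smooth muscle lineages, was the 1 factor lower in every labelled mutant. It was at 179, 214 and 200 CPM in the labelled controls and at 152, 153 and 177 CPM in the labelled mutants. Control replicate 1 and mutant replicate 3 nearly met. The means were 198 ± 17.2 and 161 ± 14.4 CPM (SD, n = 3 each), 1.23-fold lower with a log2 fold change of -0.30 (SE 0.10), an edgeR adjusted p of 0.165 and a DESeq2 adjusted p of 0.067. The opposite-strand gene 1010001N08Rik, which shares 93 exon bases with Gata6 at its 5′ end, was likewise lower in every labelled mutant, at 11.1 ± 1.32 against 8.07 ± 0.446 CPM (SD, n = 3 each; log2 fold change -0.46, edgeR adjusted p = 0.125, DESeq2 adjusted p = 0.0446). The library kit named does not mark strand, so reads in shared exons cannot be told apart.

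Hand2 (ENSMUSG00000038193.3, chromosome 8, 57320983 to 57324633, plus strand), the Hand factor of the right ventricle and outflow tract, was at 66.0, 67.4 and 72.3 CPM in the labelled controls and 71.3, 77.7 and 94.5 CPM in the labelled mutants. The groups overlapped by 1 heart on each side, and mutant replicate 3 was the highest of all. The means of 68.5 ± 3.28 and 81.2 ± 12.0 CPM (SD, n = 3 each) gave a log2 fold change of 0.24 (SE 0.11, edgeR adjusted p = 0.261, DESeq2 adjusted p = 0.255). The antisense gene Hand2os1 spans the start-site window shown above, shares 461 exon bases with Hand2 and lay in the other direction. It was at 50.1, 62.6 and 50.8 CPM in labelled controls and at 42.9, 46.8 and 48.1 CPM in labelled mutants, without overlap, with a log2 fold change of -0.25 (SE 0.10) and an edgeR adjusted p of 0.241. Whether reads of either gene were counted for the other was not tested.

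For the remaining 5 factors the groups overlapped and the 95% interval of the log2 fold change included 0. Nkx2-5 (ENSMUSG00000015579.4, chromosome 17, 26838664 to 26845009, minus strand), the NK2 factor of all heart muscle, was at 155, 169 and 161 CPM in labelled controls and 153, 166 and 220 CPM in labelled mutants. Mutant replicate 3 alone was outside the control range on the high side. Its log2 fold change was 0.15 (95% interval -0.15 to 0.45, edgeR adjusted p = 0.538), and -0.02 without that heart. Gata4 (ENSMUSG00000021944.13, chromosome 14, 63198922 to 63271692, minus strand), the other GATA factor, was at 238, 242 and 249 CPM against 264, 247 and 265 CPM. The narrow spread left a log2 fold change of 0.09 with an interval from -0.08 to 0.25 (edgeR adjusted p = 0.506).

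Mef2c (ENSMUSG00000005583.14, chromosome 13, 83504034 to 83667080, plus strand), which also acts in endothelium and the second heart field, was at 124, 122 and 114 CPM in the labelled controls and 114, 117 and 108 CPM in the labelled mutants. Its log2 fold change was -0.08 (95% interval -0.24 to 0.07, edgeR adjusted p = 0.502). Tbx20 (ENSMUSG00000031965.12, chromosome 9, 24718138 to 24774303, minus strand), the chamber T-box factor that also acts in endocardium and cushions, was at 597, 562 and 523 CPM against 570, 542 and 459 CPM, with a log2 fold change of -0.10 (-0.34 to 0.14, edgeR adjusted p = 0.614). In both groups replicate 3 was the lowest for these 2 genes. Tbx2 (ENSMUSG00000000093.6, chromosome 11, 85832551 to 85841948, plus strand), the other repressor of the atrioventricular canal, was at 11.5, 16.1 and 14.9 CPM against 14.0, 15.3 and 15.8 CPM. Control replicate 1 set its direction, since the log2 fold change was 0.08 (-0.23 to 0.40, edgeR adjusted p = 0.755) with that heart and -0.05 without it. A gene near the start of Tbx5, Gm43050, was at 5.47 ± 0.837 and 5.73 ± 0.431 CPM (SD, n = 3 each), with overlap. Near Tbx2 and Tbx3, 2610027K06Rik, Gm11444 and Tbx3os2 had too few counts to test.

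**Figure D3:**
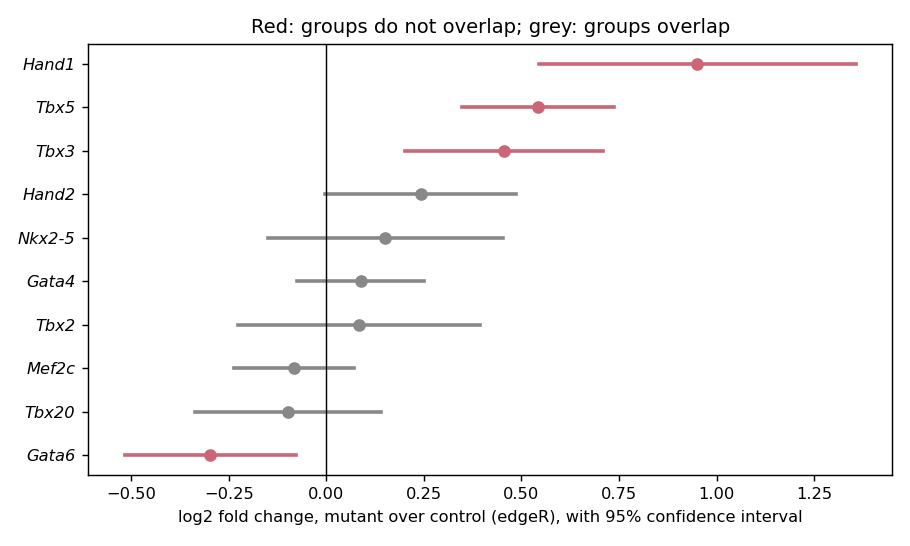
Log2 fold change of each factor, mutant over control, from edgeR, with the 95% interval as a line. The intervals of Hand1, Tbx5 and Tbx3 lay above 0 and that of Gata6 below 0 before adjustment for the 17125 genes tested, and those of the other 6 factors included 0.

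Paired factors were also compared as ratios within a heart. The ratios were taken as log2 of (CPM + 1) for 6 pairs, with no correction for length, and compared by an exact two-sided permutation test, which cannot go below p = 0.1 with 3 hearts against 3. Tbx5 over Tbx20, both chamber factors, was at -3.82, -3.76 and -3.77 in labelled controls and at -3.26, -3.10 and -3.09 in labelled mutants. The labelled controls lay within a narrow band and the groups were far apart for this ratio, with a difference of 0.63 (exact permutation p = 0.1, 0.2 adjusted over the 6 pairs). Gata4 over Gata6 was at 0.41, 0.18 and 0.32 against 0.79, 0.69 and 0.58, again without overlap, a difference of 0.38 (exact permutation p = 0.1, adjusted 0.2). Hand1 over Hand2 was at -2.11, -2.45 and -2.91 against -1.75, -1.78 and -1.88, a difference of 0.69 (exact permutation p = 0.1, adjusted 0.2).

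In all 3 of these pairs, each labelled mutant lay on the same side of every labelled control. Each pair holds a factor that did not overlap by itself (Tbx5, Gata6 or Hand1), so the ratios partly restate those single-gene results. The share of other gene pairs without overlap was not computed. The other pairs overlapped. Tbx5 over Tbx3, the activator over the repressor, stood at 2.0 ± 0.09 and 2.12 ± 0.06 (SD, n = 3 each), a difference of 0.12 (exact permutation p = 0.2, adjusted 0.24). Tbx2 over Tbx3, the repressors of the atrioventricular canal, stood at 0.55 ± 0.19 and 0.24 ± 0.20 (SD, n = 3 each), a difference of -0.32 (exact permutation p = 0.2, adjusted 0.24). Nkx2-5 over Mef2c differed by 0.22 (exact permutation p = 0.4), with 1.02 in mutant replicate 3 against 0.42 and 0.50 in the other labelled mutants.

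**Figure D4:**
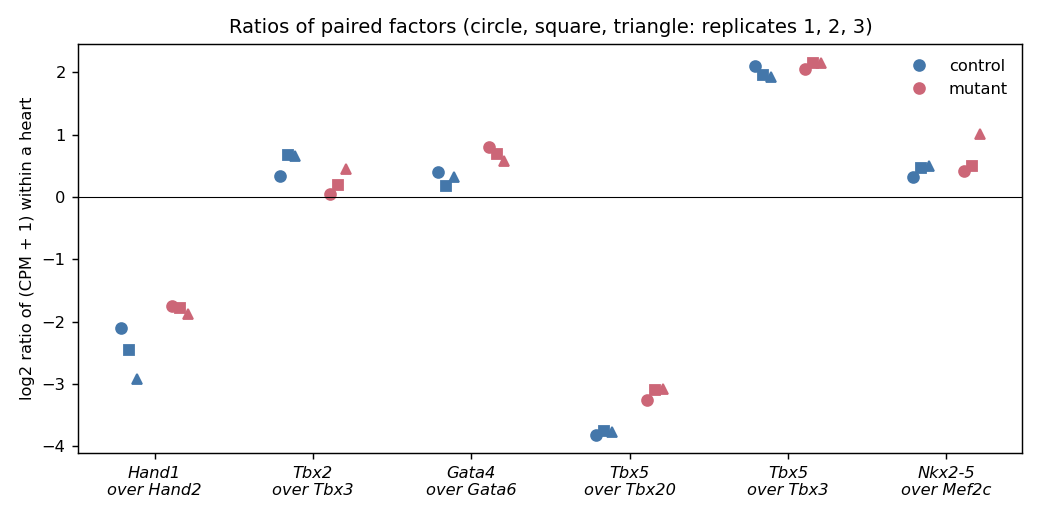
Log2 ratio of (CPM + 1) of paired factors within each heart, with circles, squares and triangles for replicates 1, 2 and 3 of the control (blue) and mutant (red) hearts. Hand1 over Hand2, Gata4 over Gata6 and Tbx5 over Tbx20 lay higher in all 3 mutant hearts, and the other 3 pairs overlapped.

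Because most of these factors are made by cardiomyocytes, their levels were also taken relative to 22 structural genes of the cardiomyocyte, such as Actc1, Tnnt2 and Ttn. The mean log2(CPM + 1) of those genes was 10.07 ± 0.15 in labelled controls and 9.98 ± 0.06 in labelled mutants (SD, n = 3 each), with overlap (exact permutation p = 0.5), and their summed level was 36900 to 44900 against 36600 to 39600 CPM. Relative to them, Hand1 (difference 1.02 on the log2 scale), Tbx5 (0.63), Tbx3 (0.50), Hand2 (0.33) and Tbx2 (0.19) were higher and Gata6 (-0.20) was lower in every labelled mutant, each with an exact permutation p of 0.1 and 0.167 after adjustment over the 10 factors. Nkx2-5 (0.23), Gata4 (0.18), Mef2c (0.01) and Tbx20 (-0.01) overlapped. Hand2 and Tbx2 were thus without overlap on this scale and not on the CPM scale. Of all genes tested, 19.8% did not overlap on this scale, 14.3% higher and 5.43% lower.

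Atrial genes as a sum, of which Myl4 was the largest part, were higher in every labelled mutant than in any labelled control. The 14 genes of an atrial list, of which Tbx5 is 1, summed to 1830 to 2180 CPM in labelled controls and 2360 to 2900 CPM in labelled mutants, and 11 of the 14 had higher and 3 lower fitted levels (median log2 fold change 0.29). With edgeR, 6 were higher at an unadjusted p under 0.05 and 0 lower, beside 9.48% and 9.98% of all genes. DESeq2 called 5, all higher, where it called 2.73% of all genes higher. The mean log2(CPM + 1) of the 13 without Tbx5 was 5.41 ± 0.17 and 5.73 ± 0.14 (SD, n = 3 each), without overlap (difference 0.32, exact permutation p = 0.1). The groups nearly met on this mean, with control replicate 3 at 5.583 and mutant replicate 3 at 5.599. Relative to those 13, Hand1 was still higher in every labelled mutant, by 0.60, whereas Tbx5 (0.21, exact permutation p = 0.2) and Tbx3 (0.09) overlapped, and Gata6 (-0.62), Tbx20 (-0.42) and Mef2c (-0.40) were lower without overlap. Of all genes tested, 0.485% were higher and 40.1% lower without overlap on that scale (40.6% in all), so the 3 lower factors are near the background. How much of the differences of Tbx5 and Tbx3 goes with the amount of atrial tissue in each heart was not tested. Among the atrial genes, Myl7, the atrial myosin regulatory light chain, was at 263 ± 56.1 and 424 ± 102 CPM, Myl4, the atrial essential light chain, at 1230 ± 32.3 and 1510 ± 130 CPM, and the orphan receptor gene Nr2f1 at 4.70 ± 1.26 and 9.02 ± 1.64 CPM (SD, n = 3 each). All 3 were without overlap, as was Dkk3, at 49.7 ± 10.8 and 72.2 ± 7.20 CPM. The 3 atrial genes lower in fitted level, Sln, Kcna5 and Itpr1, overlapped between the groups.

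The 11 ventricular genes went mostly the other way, with 4 higher and 7 lower (median -0.18). At an unadjusted edgeR p under 0.05, 4 were lower and 0 higher, beside 9.98% and 9.48% of all genes. Of those 4, DESeq2 called Pln and Kcne1, where it called 3.50% of all genes lower. The 4 genes higher in fitted level, Irx4, Irx1, Irx2 and Lbh, overlapped between the groups. Pln, the inhibitor of the calcium pump of the sarcoplasmic reticulum, was at 2000 ± 321 and 1380 ± 68.4 CPM (SD, n = 3 each; log2 fold change -0.54, edgeR adjusted p = 0.0989). Hey2, a transcriptional repressor that the study used as a marker of the compact layer, was at 188 ± 22.3 and 154 ± 4.44 CPM. Hopx, a homeodomain-only cofactor of heart muscle, was at 145 ± 16.7 and 120 ± 3.62 CPM, and Hey2 and Hopx were both without overlap. Of the study's other compact markers, Mycn was higher in fitted level (51.0 ± 6.3 and 59.6 ± 1.94 CPM) and Tbx20 lower, both with overlap. The ventricular genes summed to 14400 to 18000 CPM in labelled controls and 13900 to 15100 CPM in labelled mutants, so these sums overlapped where the atrial sums did not.

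Partners of the 10 factors were a list of 36 transcription factors and cofactors, of which 33 were tested, 22 with higher and 11 with lower fitted levels (median log2 fold change 0.09). At an unadjusted edgeR p under 0.05 there were 8 higher and 5 lower genes, against 4 and 1 called by DESeq2. Shox2, a factor of the sinus node, was at 1.84 ± 0.457 and 5.44 ± 2.54 CPM (SD, n = 3 each; log2 fold change 1.57, SE 0.35, edgeR adjusted p = 0.0935). Gata5, the GATA factor of the endocardium, was at 6.31 ± 2.26 and 13.1 ± 2.35 CPM (log2 fold change 1.05, SE 0.25, edgeR adjusted p = 0.104). Both were among the partners that DESeq2 called higher, as was Nr2f1.

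Relatives of the 10 factors outside the list were few. Mef2a was the partner DESeq2 called lower, at 363 ± 30.6 and 280 ± 19.4 CPM (SD, n = 3 each; log2 fold change -0.37, edgeR adjusted p = 0.111), next to Mef2d at 140 ± 7.63 and 139 ± 6.05 CPM. Of 3 other MEF2 genes, 2 were tested, both lower in fitted level (median -0.19). Of the 4 other GATA genes tested, 3 were higher and 1 lower in fitted level (median 0.27), and Gata5 was the 1 called by DESeq2. Of 13 other T-box genes, 11 were below 1 CPM in every heart, and the 3 tested were all lower in fitted level (median -0.16). None of the 6 other NK2 genes was tested, each being below 1 CPM in every heart.

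Genes that the 10 factors are known to act on were taken as a list of the working myocardium. Another list, of the pacemaker and atrioventricular canal, held genes of a region and was not a list of targets. In the working myocardium, the target of the activators, 28 genes had 8 higher and 20 lower fitted levels (median -0.17). At an unadjusted edgeR p under 0.05 there were 4 higher and 6 lower genes, against 4 and 2 called by DESeq2. The higher ones by DESeq2 were Cited1, a transcriptional coregulator (138 ± 29.2 and 238 ± 37.4 CPM, SD, n = 3 each; edgeR adjusted p = 0.0867), Gja5, the connexin of atrial and trabecular muscle (115 ± 24.4 and 168 ± 9.73 CPM, edgeR adjusted p = 0.118), Myl7 and Myh6. The lower ones were Pln and Xirp2, an actin-binding protein (5.43 ± 2.36 and 2.50 ± 0.269 CPM, edgeR adjusted p = 0.122). Nppa, a known target of Tbx5 and Nkx2-5, was at 203 ± 87.9 and 241 ± 48.0 CPM, with overlap.

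The list of the pacemaker and atrioventricular canal, where Tbx3 and Tbx2 act, held 19 tested genes with 13 higher and 6 lower (median 0.30). At an unadjusted edgeR p under 0.05, 10 were higher and 3 lower, against 7 and 1 called by DESeq2, beside the 9.48%, 9.98%, 2.73% and 3.50% of all genes. The 3 lower ones were Isl1, Cacna1g and Kcne1. Cacna1g (36.1 ± 8.97 and 25.3 ± 4.16 CPM, SD, n = 3 each) and Kcne1 (119 ± 33.2 and 79.9 ± 11.8 CPM) overlapped. Isl1, a factor of the sinus node, did not overlap but was below 1 CPM in every heart (0.709 ± 0.256 and 0.293 ± 0.106 CPM). Hcn4, the pacemaker channel, was at 14.9, 15.1 and 12.9 CPM in labelled controls and 24.8, 30.3 and 27.3 CPM in labelled mutants. The groups were far apart, with a log2 fold change of 0.94 (SE 0.11), an edgeR adjusted p of 0.0645 and a DESeq2 adjusted p of 6.95e-10. Cacna2d2, a subunit of calcium channels, was at 42.2 ± 6.75 and 72.3 ± 3.72 CPM (SD, n = 3 each; edgeR adjusted p = 0.0645), and Msx2, a homeobox gene of the atrioventricular canal, at 1.79 ± 0.277 and 3.31 ± 0.347 CPM (edgeR adjusted p = 0.0959). Bmp2, which induces Tbx2 in the canal, was at 12.2 ± 1.2 and 15.1 ± 0.273 CPM, without overlap, and the connexin gene Gjc1 at 62.9 ± 2.94 and 61.2 ± 4.66 CPM, with overlap. This list was compiled with earlier results of these hearts known, and it shares Shox2, Isl1 and Tbx18 with the partner list.

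**Figure D5:**
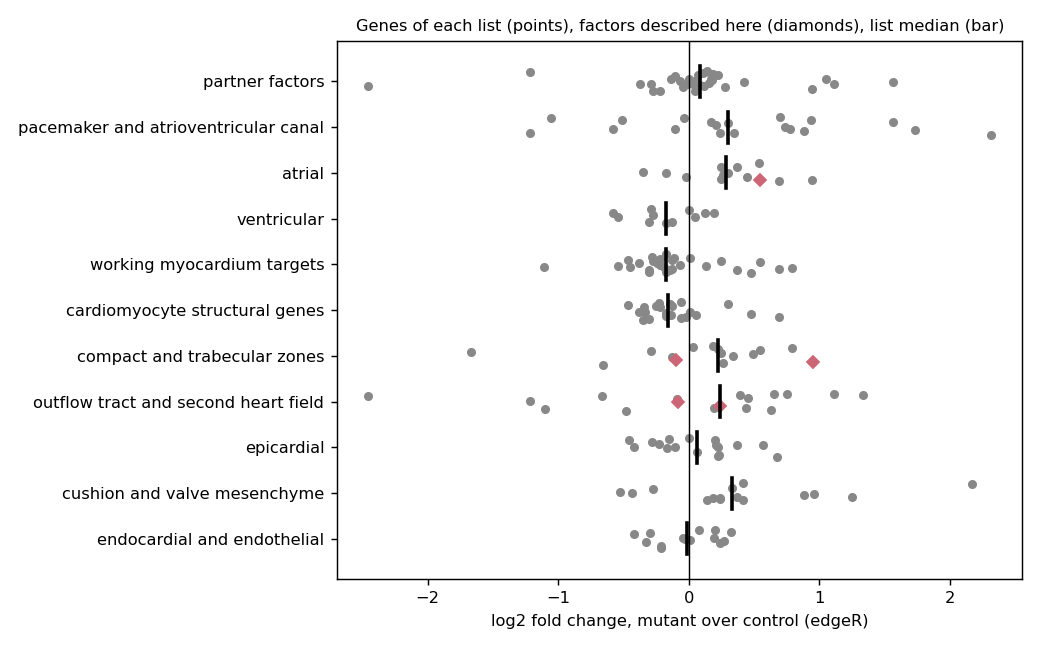
Log2 fold change, mutant over control, from edgeR for the genes of each list (grey points), with the median as a black bar and the factors described here as red diamonds. The medians ran from -0.18 for the ventricular list to 0.33 for cushion and valve mesenchyme, with 0.30 for the pacemaker and atrioventricular canal list and 0.29 for the atrial list.

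Lists of regions and of other cells that make these factors were read in the same fit, and edgeR called 0 genes at an adjusted p under 0.05 in each of them. In the compact and trabecular list, of which Hand1 and Tbx20 are members, 10 of 15 genes were higher and 5 lower (median 0.23), with 4 higher and 3 lower at an unadjusted edgeR p under 0.05 and 3 and 2 called by DESeq2. Its widest difference was in Ckm, the muscle creatine kinase, at 313, 761 and 635 CPM in labelled controls and 172, 167 and 199 CPM in labelled mutants (log2 fold change -1.67, edgeR adjusted p = 0.0763). Fabp3, a fatty acid binding protein, was at 455 and 289 CPM in the group means (log2 fold change -0.66, SE 0.15, edgeR adjusted p = 0.10). Both were lower in every labelled mutant, while Hand1 was higher.

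The outflow tract and second heart field list, which holds Hand2 and Mef2c, had 10 of 17 genes higher and 7 lower (median 0.24), 7 and 3 at an unadjusted edgeR p under 0.05 and 3 and 1 by DESeq2. Among those called by DESeq2 were Wnt5a and Wnt11, ligands of the outflow tract, and Nrp2, a receptor for semaphorins. Wnt5a was at 42.7 and 67.3 CPM (log2 fold change 0.65, SE 0.14, edgeR adjusted p = 0.0906), Wnt11 at 8.46 and 14.3 CPM (0.76, SE 0.14, edgeR adjusted p = 0.0833) and Nrp2 at 49.2 and 35.1 CPM (-0.48, SE 0.11, edgeR adjusted p = 0.10) in the group means. The cardiomyocyte structural list had 5 of 22 genes higher and 17 lower (median -0.16), with 3 and 5 at an unadjusted edgeR p under 0.05 and 3 and 1 by DESeq2. The 3 higher ones were Myl4, Myl7 and Myh6, of which Myl4 and Myl7 are in the atrial list too, and the lower one was Myoz2, a protein of the Z-disc, at 160 ± 19.5 and 126 ± 5.68 CPM (SD, n = 3 each).

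Hand2, Gata4, Gata6, Tbx20 and Tbx2 are also made outside the muscle. Epicardial genes were 10 higher and 7 lower of 17 (median 0.06, summed level 524 to 535 CPM against 477 to 534), with 3 and 3 at an unadjusted edgeR p under 0.05 and 2 and 2 by DESeq2. Upk3b (42.2 ± 5.51 and 62.7 ± 6.13 CPM, SD, n = 3 each) and Krt19 (16.1 ± 4.74 and 25.9 ± 2.91 CPM), epithelial markers of the epicardium, were higher, and Dcn (164 ± 17.4 and 119 ± 9.43 CPM) and Lum (68.4 ± 6.07 and 51.1 ± 0.375 CPM), matrix genes of fibroblasts, were lower, all without overlap between hearts. Cushion and valve genes were 12 higher and 3 lower of 15 (median 0.33, summed level 755 to 1010 against 822 to 941 CPM), with 6 and 2 at an unadjusted edgeR p under 0.05 and 2 and 2 by DESeq2. The cartilage collagen Col2a1 was at 23.3, 4.29 and 4.11 CPM in the controls, with control replicate 1 apart, and averaged 48.3 ± 1.73 CPM in the mutants (SD, n = 3). Prrx1, a mesenchymal factor, lay the other way, at 24.6 ± 1.27 and 17.1 ± 0.469 CPM (SD, n = 3 each; edgeR adjusted p = 0.0645).

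Genes of the endothelium, where Tie2Cre acts, were 7 higher and 7 lower of 14 (median -0.01, summed level 1070 to 1350 against 1220 to 1290 CPM), with 0 and 2 at an unadjusted edgeR p under 0.05 and 0 and 1 by DESeq2. The one called was Esam, an endothelial adhesion gene, at 66.7 ± 6.19 and 53.0 ± 1.72 CPM (SD, n = 3 each). The list of neural crest and cardiac neurons had 9 of its 13 genes below 1 CPM in every heart, 8 tested (2 higher, 6 lower), a summed level of 23.1 to 29.7 against 22.6 to 25.6 CPM, and 0 at an unadjusted edgeR p under 0.05 or by DESeq2. Lung, foregut and liver genes, the tissues that could be carried over in dissection, were all 14 below 1 CPM, with 1 tested and a summed level of 0.762 to 2.31 against 0.684 to 0.87 CPM. Genes of red cells and macrophages were 5 higher and 11 lower of 16 (median -0.44), 2 and 6 at an unadjusted edgeR p under 0.05 and 1 and 0 by DESeq2. They summed to 8880 to 39300 CPM in labelled controls and 5630 to 10300 CPM in labelled mutants, and the gene called was Hbb-bh1, the embryonic globin, at 3.05, 1.06 and 1.67 CPM against 14.0, 15.7 and 16.5 CPM. The part of blood and of developmental stage in the differences of the 10 factors was not tested.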

How the data were processed

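Raw counts per gene were deposited by the authors for 6 whole e13.5 hearts. Per the study's methods, 76 bp paired-end reads from a NEBNext Ultra library were mapped to GRCm38 with STAR (version 2.4.2a) and GENCODE vM6 and counted with summarizeOverlaps, whose strand and overlap settings are not given in the sources used here. A second deposited table of DESeq2 means, fold changes and p-values was used for gene symbols only. The members and all lists were chosen with earlier results of these data known.

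GENCODE vM21 (GRCm38) gave coordinates and lengths, and matched 45143 of the 45792 identifiers. In R 4.3.3, genes were kept by filterByExpr (minimum count 10, total 15), scaled by TMM and fitted with edgeR 4.0.16 (quasi-likelihood, condition alone, Benjamini-Hochberg adjustment over all tested genes). DESeq2 1.42.0 was the main alternative. Other alternatives were other scalings, filters, pseudocounts, lengths, a replicate block and each heart left out. In counts simulated from these means, edgeR recovered 20% of 200 genes changed 1.5-fold and 73% changed 2-fold, and DESeq2 45% and 80.5%. With no gene changed, edgeR called 0 and DESeq2 21. Depth ran from 28948836 to 89675692 counts per heart. Replicates of a group differed by far more than sampling noise (chi-square per degree of freedom 20.52 to 72.15).

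Named genes were the 10 members, Ino80, genes overlapping a member or within 5 kb, and from each list up to 4 genes with the smallest p among those without overlap and with a mean of at least 1 CPM. Mef2d, Nppa, Bmp2, Gjc1, Kcne1, Mycn, Isl1, Cacna1g, Irx1, Irx2, Irx4, Lbh, Sln, Kcna5, Itpr1, Xist and Ddx3y were named after their values were seen. The lists were partner factors, working myocardium targets, pacemaker and atrioventricular canal, compact and trabecular zones, outflow tract and second heart field, cardiomyocyte structural, atrial, ventricular, epicardial, cushion and valve, neural crest, endothelial, lung with foregut and liver, and red cells with macrophages. Other T-box, GATA, MEF2 and NK2 genes were added after the data were seen. A gene that the rule names is not reported here.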

Additional observations from a re-analysis of the deposited data

How the results depend on the processing

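Of 348 recomputed values, 298 kept their direction and side of the threshold or, without a test, moved by less than the spread between hearts. The factors called at an adjusted p under 0.05 numbered 0 with edgeR, 3 with DESeq2, 2 with every gene of at least 1 count kept and 2 at a threshold of 0.1. With 1 heart left out they numbered 0 to 2 with edgeR and 2 to 4 with DESeq2, the latter chosen after seeing the data, as were the left-out hearts for overlap and the atrial reference. The 2 with edgeR came without control replicate 1, where it called 4.34% of all genes. The share of all genes called in the DESeq2 fits with a heart left out was not computed. Hand1 was at 0.949 (log2, adjusted p = 3.76e-05) with DESeq2 and 0.959 (0.00537) with the looser filter. Tbx5 was at 0.541 (6.95e-05) and 0.552 (0.00768), and Tbx3 at 0.455 with DESeq2 (0.029). Over the left-out hearts, edgeR and DESeq2 gave 0.783 to 1.152 and 0.778 to 1.147 for Hand1, 0.489 to 0.607 and 0.485 to 0.605 for Tbx5, 0.408 to 0.534 and 0.404 to 0.534 for Tbx3, and -0.369 to -0.237 and -0.37 to -0.242 for Gata6. DESeq2 called Gata6 without control replicate 1 (-0.368, adjusted p = 0.00996) or mutant replicate 3 (-0.37, 0.0246), and lost Tbx3 in 5 of the 6 such fits, keeping it without mutant replicate 3 (0.534, adjusted p = 0.00709), at adjusted p up to 0.232. Hand1 and Tbx5 were called in all 6. Nkx2-5 ranged from -0.016 to 0.255 and -0.017 to 0.248, reversed without mutant replicate 3, and Tbx2 from -0.047 to 0.187 and -0.054 to 0.182, reversed without control replicate 1. Factors without overlap numbered 4, with 6 in CPM by total counts alone (27.9% of all genes) and 4 to 7 with a heart left out, with 7 without control replicate 3, where 39.5% of all genes did not overlap. List genes called, of 184 tested, were 0 with edgeR, 35 with DESeq2 and 0 to 34 with a heart left out, 34 of them without control replicate 1. The order of levels kept 8 ranks with the longest transcript as length. Relative to the atrial genes instead of the cardiomyocyte genes, the differences were -0.185 for Nkx2-5, -0.233 for Gata4, -0.615 for Gata6, -0.403 for Mef2c, 0.602 for Hand1, -0.088 for Hand2, -0.229 for Tbx2, 0.09 for Tbx3, 0.21 for Tbx5 and -0.422 for Tbx20. The cause of these moves was not tested. A replicate block called 0 factors and 0 list genes (Tbx5 0.541, adjusted p = 0.102; Hand1 0.972, adjusted p = 0.119). The numbers did not pair the hearts, as same-numbered hearts had deviations correlated at 0.024, -0.084 and -0.073.

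With 3 hearts a group, the simulated recovery of 1.5-fold changes was low, so a factor that missed the threshold, such as Tbx3 or Gata6, is not shown to be equal between the groups. Scaling by total counts in place of TMM shifted the median of all genes by 0.0571 (log2). The lowest count of the 10 factors in a heart was 283.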
